A study of Mus musculus with 4 samples.

Results

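The genes described here encode the machinery of oxidative phosphorylation, the respiratory chain and the ATP synthase of the inner mitochondrial membrane, in mouse medulloblastoma. They were chosen by symbol alone: every gene in the files whose name begins with Ndufa, Ndufb, Ndufc, Ndufs, Ndufv, Uqcr, Cox4 to Cox8, Atp5 or mt-, together with Sdha, Sdhb, Sdhc and Sdhd. This took 105 of the 27998 genes in the files, 92 encoded in the nucleus and 13 in the mitochondrial DNA. The nuclear set holds 38 complex I genes, 7 complex I assembly factors, 4 genes of complex II, 8 of complex III, 18 of complex IV and 17 of complex V. The mitochondrial set holds 7 genes of complex I, 1 of complex III, 3 of complex IV and 2 of complex V. A symbol is not a function. Cox7a2l is named like a complex IV subunit and is known as a factor that joins complexes III and IV into supercomplexes. Ndufa4 is named for complex I and has been found in complex IV, and Atp5s and Atp5sl are not core subunits of the ATP synthase.

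Complexes I, III and IV pump protons as electrons pass from NADH to oxygen, complex II feeds electrons in from succinate, and complex V, the ATP synthase, uses the proton gradient to make ATP. Complexes I, III, IV and V are built from subunits of both genomes: the mitochondrial DNA supplies a few core subunits, made on mitochondrial ribosomes, and the nucleus supplies all others and the whole of complex II. Nuclear transcripts are made by RNA polymerase II and exported, whereas mitochondrial transcripts are cut from long transcripts made by a separate polymerase inside the organelle, so the levels of both sets need not move together. Granule neuron precursors of the cerebellum are known for a glycolytic metabolism driven by Sonic hedgehog, and their differentiation for a turn towards oxidative metabolism.

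Tumours were taken from the cerebellum of 4 littermate mice at postnatal day 20, and single-cell RNA was measured in 1 library per mouse by 10x Chromium 3' sequencing, which counts each captured RNA molecule once by a unique molecular identifier (UMI). All mice were of the strain Atoh1-cre:SmoM2, so all carried the same alleles and there was no untreated or wild-type group. Atoh1-cre is active in granule neuron precursors, where it switches on SmoM2, a constitutively active Smoothened, and the tumours that arise are medulloblastomas of the Sonic hedgehog (SHH) subgroup. Cells were sorted for viability with 7-AAD before loading, which can set the shares of cell types. Classes of cells were therefore compared within mice, and each mean below is over mice.

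Cells were kept when 500 or more genes were detected and no more than 10% of their UMIs came from the mitochondrial genes. This left 4137 cells, 1368, 888, 710 and 1171 in mice 1 to 4, with a median of 1733 to 2567 UMIs per cell. The limit of 10% acts directly on the mitochondrial genes and removed 483 barcodes. Between 1 and 5 barcodes were shared by any pair of libraries. Cells were clustered without the genes described here and without ribosomal genes. Several clusters had very little Malat1, a long nuclear RNA, and few UMIs per cell, and 23.1% of cells held under 30 Malat1 UMIs per 10000. The Malat1 level is therefore given beside the results below. In libraries of this kind fewer RNA molecules of a gene per cell and more of all other RNA cannot be told apart, because every level is a share of the UMIs of a class.

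In the files 2 of the 105 genes, Cox4i2 and Cox8c, had no UMI in the analysed cells, and 5 had between 1 and 20 (Cox8b, Cox6a2, Cox7b2, Cox7a1 and Ndufa4l2, all alternative forms that are known mainly from other tissues). All other members were detected more often. The nuclear members took 3.65% of all UMIs and the mitochondrial members 3.39%. The nuclear members lie on 20 chromosomes, so no shared locus ties them. Of the 13 mitochondrial genes, mt-Nd6, mt-Atp8 and mt-Nd4l had 117, 454 and 1428 UMIs, and mt-Atp8 and mt-Nd4l overlap mt-Atp6 and mt-Nd4 on the same strand, so reads of these pairs may have been divided by the counting.

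Because nuclear members are transcribed from separate promoters, their sequence upstream of the start is the natural place to look for a shared element. RefSeq promoters (GRCm38.p6, 250 bases before to 50 after the start, 1 start per gene) were found for 76 of the 92 nuclear members. The binding motif of NRF1, a regulator of respiratory genes, was searched on both strands as GCGCA and GCGC with any base N between them, that of GABP (also called NRF2) as CCGGAAG and that of YY1 as AAGATGGC. NRF1's letters stood in 18 of 76 promoters (23.7%), against 4.78% of 27025 promoters of all genes. The GABP letters stood in 16 (21.1%), against 9.12%, and the YY1 letters in 10 (13.2%), against 2.88%. None of the YY1 matches lay wholly before the start. They began at positions 23 to 39 after it, except in Atp5f1, where the match crossed the start. Some NRF1 and GABP matches also lay only after the start, as for NRF1 in Atp5g3, Ndufaf5, Uqcrc1, Ndufa6 and Atp5o. A match is a run of letters and not a measured site. The sequences below are those of 3 members that were among the most raised in the low-Malat1 dividing cells described further on or in oligodendrocyte-lineage-like cells, and of Cox5b, whose window holds none of these motifs upstream of the start. Each runs 5' to 3' on the gene's strand, is in lower case, and has the motif letters in capitals: NRF1 in Cox6a1 (a pair of matches) and Atp5k, GABP on the reverse strand in Cox6a1 and Cox6b1. Cox6a1 is chr5:115348959-115349208 (minus strand), Atp5k chr5:108434419-108434649 (minus), Cox6b1 chr7:30626122-30626364 (minus) and Cox5b chr1:36691237-36691478 (plus). By the GENCODE vM21 annotation the last 23 bases shown for Cox6a1, and the last 30 for the others, lie inside the gene. The GABP matches of Cox6a1 and Cox6b1 lie in that part, and the NRF1 match of Atp5k crosses into it. Cox6a1, Cox6b1 and Cox5b encode nuclear subunits of complex IV, and Atp5k encodes subunit e of the ATP synthase.
Cox6a1: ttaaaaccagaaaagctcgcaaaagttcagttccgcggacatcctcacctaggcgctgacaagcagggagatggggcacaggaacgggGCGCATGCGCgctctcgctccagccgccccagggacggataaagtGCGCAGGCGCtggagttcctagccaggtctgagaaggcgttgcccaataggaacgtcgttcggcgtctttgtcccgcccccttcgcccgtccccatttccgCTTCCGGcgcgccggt
Atp5k: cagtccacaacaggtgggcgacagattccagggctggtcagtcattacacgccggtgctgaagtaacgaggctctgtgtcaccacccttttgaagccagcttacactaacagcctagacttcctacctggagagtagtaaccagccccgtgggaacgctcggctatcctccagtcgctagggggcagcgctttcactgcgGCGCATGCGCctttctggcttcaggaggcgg
Cox6b1: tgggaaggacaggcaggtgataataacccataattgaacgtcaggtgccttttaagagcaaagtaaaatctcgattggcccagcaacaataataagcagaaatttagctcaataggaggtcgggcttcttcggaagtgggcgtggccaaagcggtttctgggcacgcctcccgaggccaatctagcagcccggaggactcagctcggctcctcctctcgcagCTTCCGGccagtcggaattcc
Cox5b: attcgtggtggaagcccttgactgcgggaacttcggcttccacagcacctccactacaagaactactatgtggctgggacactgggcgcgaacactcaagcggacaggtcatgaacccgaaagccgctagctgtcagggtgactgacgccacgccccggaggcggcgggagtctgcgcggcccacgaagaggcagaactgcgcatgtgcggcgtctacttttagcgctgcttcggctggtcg

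Across the cell classes the summed level of the nuclear members varied less than that of the mitochondrial members. In the granule-lineage-like cells, called tumour cells here by their markers alone, nuclear members had 362 ± 9.89 UMIs per 10000 and mitochondrial members 333 ± 20.0 (SD, n = 4), a ratio of mitochondrial to nuclear of 0.918 ± 0.0413. By mouse the nuclear level was 356, 352, 370 and 372 and the mitochondrial level 307, 329, 354 and 341. The nuclear level spanned 326 ± 48.7 in myeloid-like to 455 ± 28.9 in differentiating granule-lineage-like cells (n = 3). The mitochondrial level spanned 209 ± 55.9 to 606 ± 84.2 between the same classes, a wider span on the same scale. Oligodendrocyte-lineage-like cells combined a nuclear level close to that of the tumour cells, 365 ± 25.7, with a mitochondrial level of 553 ± 43.6, a ratio of 1.52 ± 0.158. The clusters of this class differed in both levels, as given further on. Astroglia-like cells were high for both, at 443 ± 27.2 and 513 ± 57.5. For mitochondrial members the differentiating, astroglia-like and oligodendrocyte-lineage-like values all lay above those of the pooled tumour cells, whereas the nuclear levels of oligodendrocyte-lineage-like and tumour cells overlapped.

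**Figure D1:**
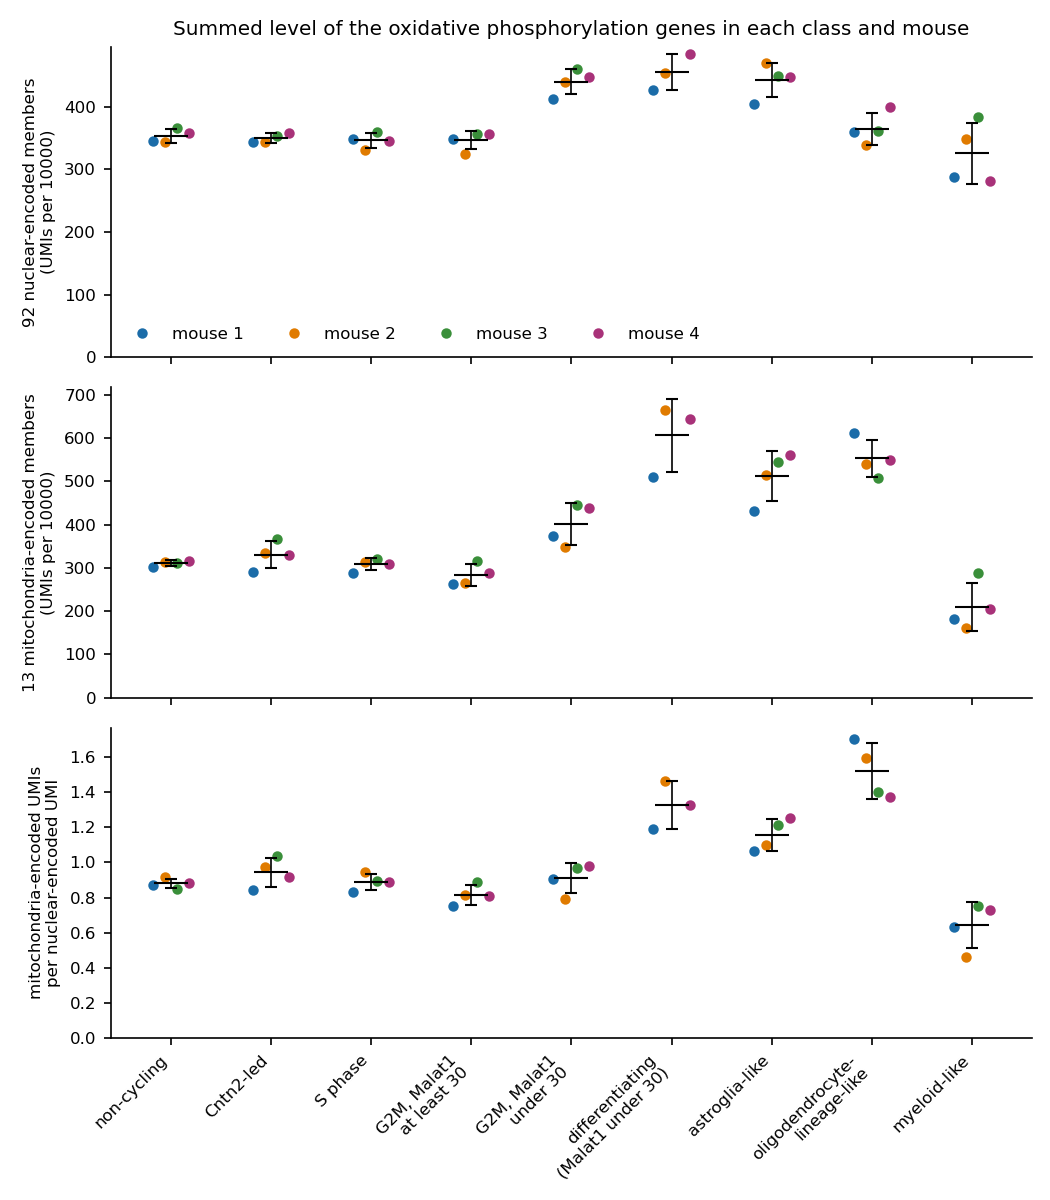
Summed UMIs of nuclear and of mitochondrial members per 10000 UMIs, and their ratio, in 9 classes of cells, with 1 point per mouse, a bar for the mean and an error bar for the SD over mice. The mitochondrial level runs from 209 (myeloid-like) to 606 (differentiating), while the nuclear level runs from 326 to 455.

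By complex, the nuclear UMIs of the tumour cells were spread as 125 ± 2.83 on complex I, 2.97 ± 0.223 on its assembly factors, 7.39 ± 0.461 on complex II, 34.3 ± 0.605 on complex III, 88.3 ± 4.09 on complex IV and 105 ± 3.16 on complex V. The mitochondrial UMIs were 62.3 ± 2.75 on complex I, 29.4 ± 3.05 on complex III, 155 ± 17.6 on complex IV and 85.9 ± 5.04 on complex V. The shares of the abundant mitochondrial transcripts mt-Atp6 and mt-Co1 differed little between classes. The share of mt-Atp6 among mitochondrial UMIs lay between 23.7% (oligodendrocyte-lineage-like) and 27.6% (low-Malat1 dividing cells), and that of mt-Co1 between 14.995% and 18.0%. Some scarcer transcripts did shift. In the low-Malat1 tumour clusters described below, mt-Nd2 took 1.73 ± 0.18% and mt-Nd5 0.48 ± 0.08% of mitochondrial UMIs. In the other tumour clusters they took 2.27 ± 0.18% and 0.73 ± 0.07%. Across classes mt-Nd2 ran from 1.64% (low-Malat1 dividing cells) to 2.57% (oligodendrocyte-lineage-like). Classes thus differed in the total of mitochondrial RNA more than in the shares of mt-Atp6 and mt-Co1.

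Within the tumour cells, the clusters with low Malat1 were high for both genomes. The 3 granule-lineage-like clusters with low Malat1 (881 cells, the differentiating ones included) had 453 ± 17.1 nuclear and 472 ± 41.9 mitochondrial UMIs per 10000, against 350 ± 10.7 and 314 ± 20.4 in the other clusters (Malat1 21.6 ± 7.28 against 156 ± 23.4, n = 4). The difference was 0.37 ± 0.04 log2 units for nuclear, 0.58 ± 0.08 for mitochondrial members and 0.36 for cytosolic ribosomal protein genes, higher in 4 of 4 mice for each. Median UMIs per cell were 1058.5 to 1218 in the low-Malat1 clusters and 1824 to 3696.5 in the others. An S-phase cluster of 96 cells with a Malat1 level of 373 ± 104 had a low nuclear level, 297 ± 10.0, with 601 ± 94.8 for mitochondrial members, a ratio of 2.03 ± 0.38 (n = 3), so a high mitochondrial level stood at both ends of the Malat1 range. Its cells were shallow, with a median of 970 UMIs.

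**Figure D2:**
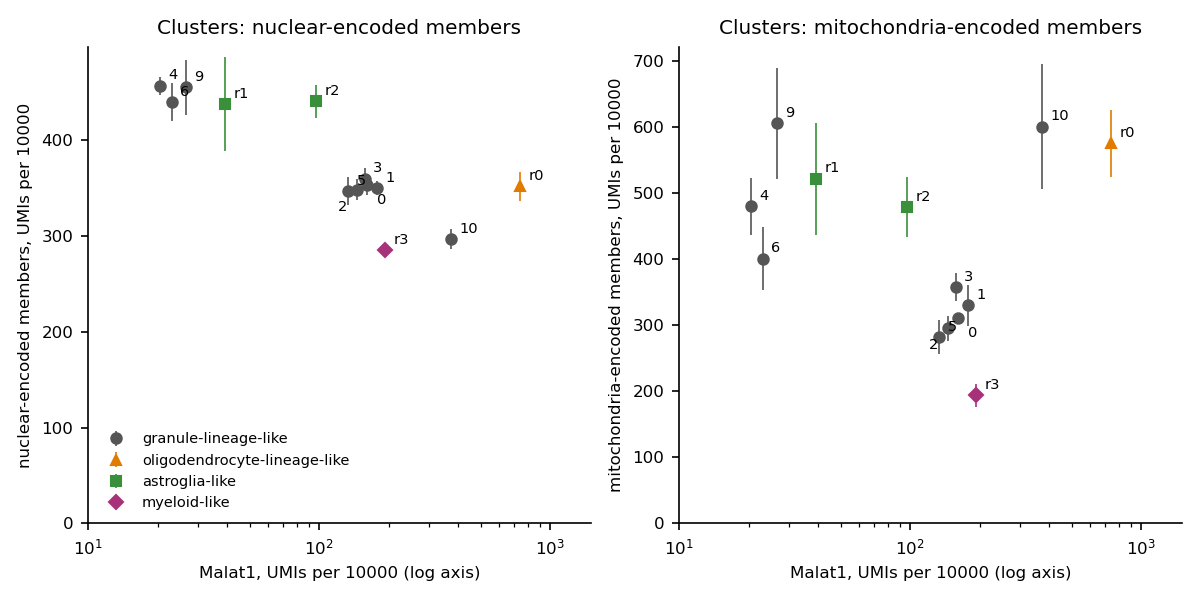
Summed level of nuclear and of mitochondrial members (UMIs per 10000) against the Malat1 level (log axis) for each cluster, as the mean and SD over mice with at least 10 cells. Low-Malat1 tumour clusters lie above 430 for nuclear members and the other tumour clusters at or below 370.

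Dividing cells were compared first with non-cycling ones. G2M-state cells (737 cells) and S-state cells (639) were each set against 686 non-cycling undifferentiated tumour cells. These were 1 cluster, led by Hes1, Btg2 and Myc, with 408, 134, 48 and 96 cells in mice 1 to 4. The reference is the same cells in both, so their values are given side by side and no agreement between them is read. Summed over each genome, the levels differed little: nuclear members differed by 0.04 ± 0.03 log2 units in G2M and -0.03 ± 0.03 in S, and mitochondrial members by -0.04 ± 0.10 and -0.02 ± 0.05 (SD, n = 4), while cytosolic ribosomal protein genes differed by -0.29 and -0.31. Malat1 was 161 ± 16.1 per 10000 in non-cycling, 156 ± 33.8 in S-state and 114 ± 29.8 in G2M-state cells, and 279 of the G2M cells belong to a low-Malat1 cluster. Both cycling classes pooled unlike clusters. The low-Malat1 G2M cluster had 438.1 nuclear-member UMIs per 10000 and 4.014% mitochondrial UMIs, and the other G2M cells 347.9 and 2.801%. The S clusters of 543 and 96 cells had 347.7 and 297.8, with 2.911% and 5.83%. The non-cycling cluster had 348.8 and 3.081%.

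Single subunits did move. In G2M cells 17 of 81 nuclear members tested rose and 3 fell, and 0 of 12 mitochondrial members rose and 1 fell, by edgeR's quasi-likelihood test at an adjusted p of 0.05. Over all genes 23.7% passed, 12.7% as higher and 11.1% as lower, so the share of members (22.6%) was close to the background. In S cells 4 nuclear members rose and 6 fell of 81, and 1 of 12 mitochondrial members fell, 11.8% in all against 21.6% of all genes (12.2% higher, 9.35% lower). Among the members that moved furthest were genes of complex IV and its partners.

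Cox7a2, the widely expressed form of complex IV subunit VIIa, had 6.69, 6.55, 6.44 and 7.46 UMIs per 10000 in the non-cycling cells of mice 1 to 4, 8.24, 8.18, 8.55 and 8.003 in S cells and 9.78, 9.37, 10.4 and 9.88 in G2M cells. The 3 classes did not overlap. Over all undifferentiated tumour cells, the cycling ones included, Cox7a2 had 8.56 ± 0.54, above the S mean of 8.24 ± 0.23. Its log2 fold change was 0.54 (SE 0.07, adjusted p = 9.45e-12) in G2M and 0.25 (SE 0.07, adjusted p = 0.00454) in S, higher in 4 of 4 mice in both. The S call was lost under DESeq2, without the block, after thinning and without mouse 1 or mouse 2.

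Cox7a2l, the related gene of the supercomplex factor, went the other way. It had 8.27, 7.75, 8.33 and 6.58 UMIs per 10000 in non-cycling cells, 5.49, 3.77, 5.65 and 3.86 in S cells and 5.76, 4.996, 5.49 and 4.45 in G2M cells. Every cycling value lay below every non-cycling one. Over all undifferentiated tumour cells Cox7a2l had 5.83 ± 0.79. The log2 fold change was -0.74 (SE 0.08, adjusted p = 1.27e-14) in S and -0.54 (SE 0.07, adjusted p = 3.99e-10) in G2M, lower in 4 of 4 mice. Cox7a2 lies at chr9:79755361-79759878 and Cox7a2l at chr17:83501918-83517330 (GRCm38, GENCODE vM21), so this pair of names does not come from neighbouring loci.

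Cox5a, a nuclear subunit of complex IV, rose in both states, with 6.24, 5.98, 5.78 and 7.10 UMIs per 10000 in non-cycling, 9.19, 7.19, 9.41 and 8.18 in S and 8.76, 7.58, 8.06 and 8.25 in G2M cells. All cycling values exceeded all non-cycling ones. Over all undifferentiated tumour cells Cox5a had 7.68 ± 0.64. The log2 fold change was 0.40 in S (SE 0.07, adjusted p = 7.15e-06) and 0.40 in G2M (SE 0.07, adjusted p = 1.29e-06). Cox5b, the partner subunit Vb, had 2.69, 2.87, 3.33 and 3.25 in non-cycling cells and 3.19, 3.87, 3.35 and 3.79 in G2M cells, a rise of 0.30 (SE 0.10, adjusted p = 0.0144) that was seen in every mouse although the ranges overlap. That call was lost in 8 of 14 alternatives. In S cells Cox5b was not called (log2 fold change 0.15, SE 0.09).

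Complex III and complex I also held called members. Uqcrb, a subunit of complex III, fell by 0.40 on the log2 scale in G2M cells (SE 0.10, adjusted p = 0.00183), from 2.92, 2.97, 2.89 and 3.44 UMIs per 10000 to 2.19, 2.35, 1.44 and 2.63. Its G2M values all lay below its non-cycling values, and the call was lost under DESeq2 and without the block. Uqcrh, the hinge subunit, fell by 0.33 in S cells (adjusted p = 8.69e-05) and by 0.18 in G2M cells (adjusted p = 0.0357). The G2M call was lost in 9 of 14 alternatives, among them DESeq2, no block and leaving out any 1 mouse, and the S call without the block. Ndufa6, an accessory subunit of complex I, fell by 0.52 in S cells (SE 0.10, adjusted p = 1e-05), from 3.06, 3.51, 3.33 and 3.52 to 2.30, 2.15, 2.87 and 2.31, with no overlap. In G2M cells 9 of 37 complex I subunits rose and 0 fell, among them Ndufb8, Ndufs5 and Ndufb7 with log2 fold changes of 0.39, 0.37 and 0.37. These calls were lost in 4, 4 and 7 of 14 alternatives, all 3 under DESeq2 and after thinning, and those of Ndufs5 and Ndufb7 also when low-Malat1 cells were left out. The complex I subunits in S cells were 0 up and 3 down of 37. Complex II, shared with the citric acid cycle, had 0 of 4 genes called in either state.

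The mitochondria-encoded mt-Co1, the catalytic core of complex IV, was 44.2, 47.6, 61.4 and 61.7 UMIs per 10000 in non-cycling, 38.6, 46.0, 58.4 and 52.5 in S and 38.1, 40.8, 58.1 and 56.9 in G2M cells. The differences between mice were larger than those between states, and within each mouse both cycling states were lower. The fall was 0.13 on the log2 scale in G2M (SE 0.05, adjusted p = 0.0372) and 0.15 in S (SE 0.05, adjusted p = 0.0395), the only mitochondrial member called in these comparisons. Both mt-Co1 calls were lost when mouse 1, 2 or 4 was left out, under DESeq2 and without the block for mouse, and with a mitochondrial limit of 20% the S value was 0.04.

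**Figure D3:**
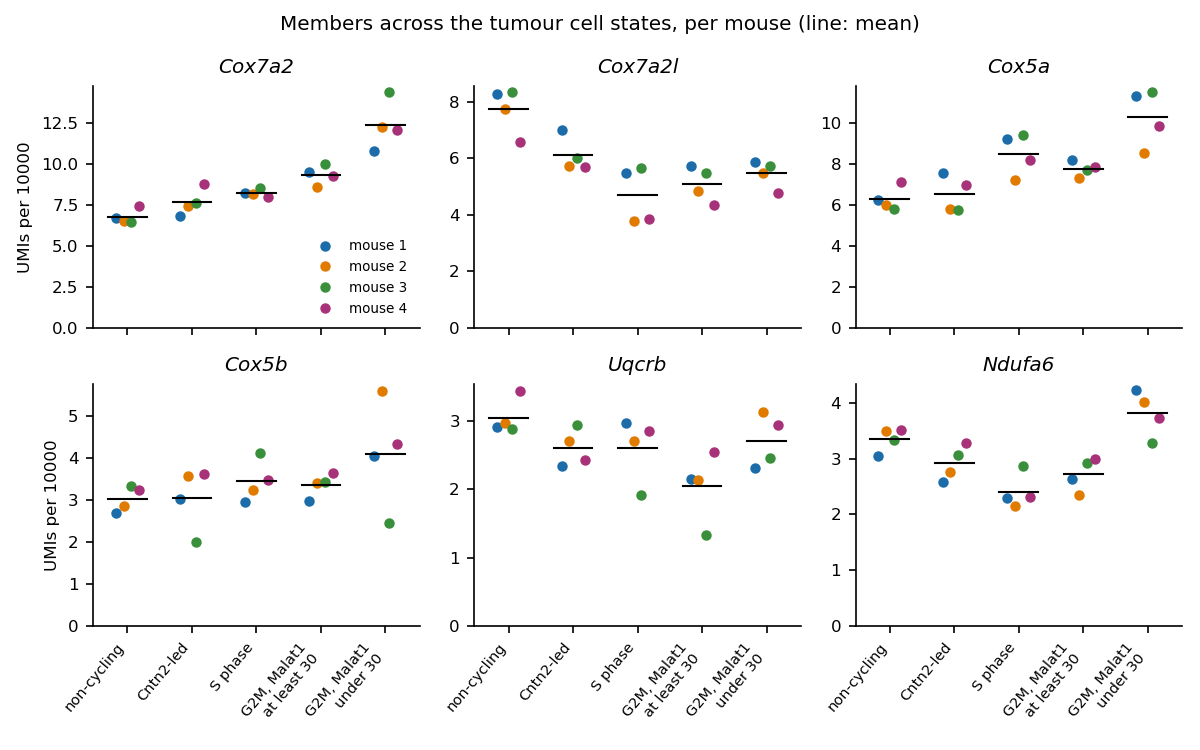
UMIs per 10000 of 6 nuclear members in non-cycling cells, the Cntn2-led cluster, S cells and G2M cells divided by Malat1, with 1 point per mouse and a line for the mean. Cox7a2 and Cox5a are higher and Cox7a2l is lower in all cycling classes than in the non-cycling cells, which are 1 cluster.

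The number of members called depended on the fit more than these leading genes did. DESeq2 called 4 members in each state, and the fit without the mouse as a block 4 in G2M and 3 in S. Without mouse 1, 8 members passed in G2M and 5 in S; without mouse 4, 11 passed in G2M; without mouse 2, 7 passed in S. With cells under 30 Malat1 UMIs per 10000 left out, 13 members passed in G2M. Cox7a2, Cox7a2l and Cox5a in G2M, and Cox7a2l, Ndufa6 and Cox5a in S, lost the call in none of the 14 alternatives apart from the removal of the mitochondrial limit. That removal changed which cells were called non-cycling, and Cox7a2 and Cox5a then turned to -0.41 and -0.09 in G2M and -0.77 and -0.16 in S, while Cox7a2l and Ndufa6 kept their sign and call. At -0.41 Cox7a2 was again called in G2M, now as lower, so its direction there depended on this limit. The reversed Cox5a values were not called.

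A cluster led by Cntn2, a gene of granule neurons leaving the cell cycle, whose summed differentiation markers were 1.79 times and progenitor markers 1.02 times their level over the tumour cells, was also set against the same non-cycling cells (605 against 686 cells). This comparison was added after the clusters had been seen. Mitochondrial members were at 330 ± 31.6 and nuclear members at 350 ± 7.501 per 10000, and the log2 differences were 0.08 ± 0.12 and -0.01 ± 0.03. Of 80 nuclear members 0 rose and 5 fell, and 0 of 12 mitochondrial members were called, against 12.2% of all genes (6.16% higher, 6.07% lower). The 5 were Ndufc2 (log2 fold change -0.35, adjusted p = 0.000261) and Ndufb6 (-0.34), subunits of complex I, Cox7a2l (-0.35, adjusted p = 0.000407), Uqcrb (-0.34) and Atp5d (-0.27). Cox7a2l was 7.02, 5.74, 6.02 and 5.70 UMIs per 10000 here, below the non-cycling value of the same mouse in each case. Without mouse 1 the count was 3, without mouse 4 it was 2, and it was 0 without the block and after thinning to 1000 UMIs per cell. The Malat1 level of this cluster was 179 ± 27.0. Its Cox7a2 level was 7.67 ± 0.83 and its Cox5a level 6.51 ± 0.88, against 6.785 ± 0.460 and 6.275 ± 0.583 in the non-cycling cells. Whether the differences of Cox7a2, Cox7a2l and Cox5a in cycling cells belong to those cells or to the reference cluster was not tested.

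Low-Malat1 dividing cells differed from the other dividing cells in both genomes. Among G2M cells, 279 in a low-Malat1 cluster (Malat1 23.0 ± 15.99 per 10000, median 1261 to 1555 UMIs per cell) were compared with 458 others (134 ± 29.5, 2612.5 to 4699 UMIs), a comparison that was added after the clusters had been seen. Of 77 nuclear members 46 were higher and 0 lower, and of 11 mitochondrial members 8 were higher and 0 lower, in edgeR's quasi-likelihood test. Over all genes 30.9% were called, 13.8% as higher and 17.1% as lower. The median log2 fold change was 0.39 for nuclear and 0.53 for mitochondrial members, against -0.01 over all genes. Cytosolic ribosomal protein genes went with them, 73 of 79 higher, as did the low depth and the low Malat1, and their part in the result was not tested.

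Every complex with both genomes took part. The called nuclear members were 21 of 37 in complex I, 4 of 8 in complex III, 10 of 11 in complex IV and 10 of 15 in complex V, and 0 of 4 in complex II, whose median was 0.23. Cox6c, a nuclear subunit of complex IV, was 8.81, 8.35, 9.47 and 9.75 UMIs per 10000 in the other G2M cells and 12.1, 14.4, 16.006 and 15.6 in the low-Malat1 ones, with no overlap. Its log2 fold change was 0.71 (SE 0.09, adjusted p = 2.67e-14). Cox6b1, the subunit at the interface of complex IV dimers, rose from 5.92, 6.05, 6.63 and 6.95 to 8.003, 10.1, 11.9 and 10.8, again without overlap, by 0.68 (SE 0.10, adjusted p = 5.57e-10).

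Atp5k rose from 2.89, 3.49, 3.14 and 3.72 to 3.76, 6.77, 5.34 and 5.64, by 0.71 (SE 0.13, adjusted p = 1.22e-06). The mitochondrial mt-Nd1, a core subunit of complex I, rose from 28.8, 25.1, 29.6 and 27.0 to 45.6, 37.0, 45.6 and 45.8, by 0.71 (SE 0.07, adjusted p = 2.61e-22). In every mouse the low-Malat1 value was the higher for all these genes. Cox5b rose by 0.43 (adjusted p = 0.00847) in 3 of 4 mice and mt-Co1 by 0.45 (adjusted p = 3.07e-10) in 4 of 4. Ndufaf2, an assembly factor of complex I, rose by 1.01 (SE 0.27, adjusted p = 0.00162) from few UMIs, 58 in the low-Malat1 and 121 in the other cells.

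When each cell was thinned to 1000 UMIs, 17 members were called in place of 54; DESeq2 called 35 and the fit without a filter on low counts 32. Leaving out any mouse left between 36 and 55. The nuclear members called higher did not carry the promoter motifs more often than the rest: 22 of 41 with a matched promoter (53.7%) held at least 1 of the 3, and so did 14 of 25 other tested members (56%). By motif the shares were 24.4% and 28% for NRF1, 26.8% and 16% for GABP and 9.76% and 20% for YY1. These are counts of letters in a window and no test was run on them.

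**Figure D4:**
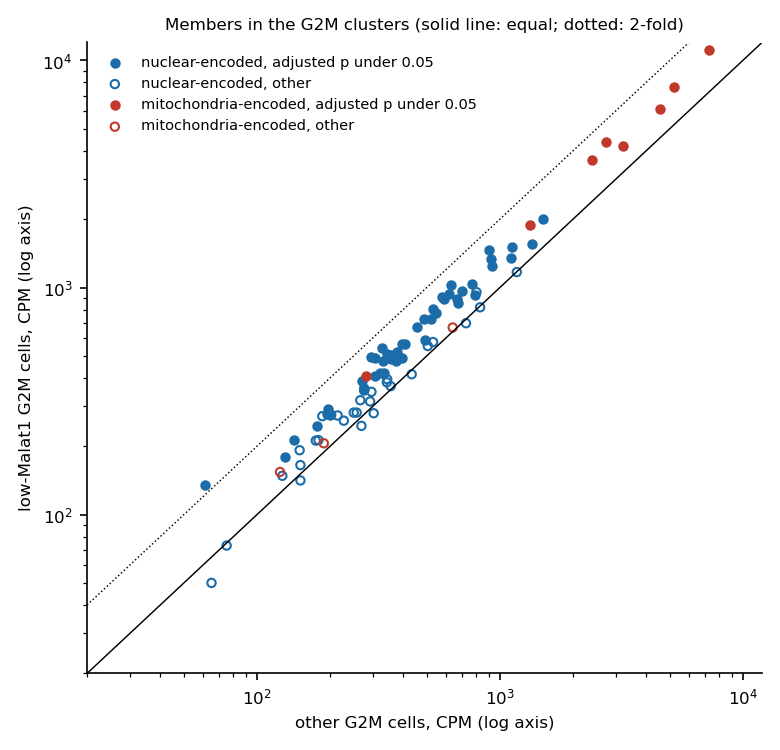
Mean CPM of each member in low-Malat1 G2M cells against the other G2M cells on log axes, with a solid line where both are equal and a dotted line at a 2-fold difference. Nearly all points lie above the solid line, the mitochondrial ones at the upper end, and Ndufaf2 reaches the dotted line.

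Differentiating tumour cells were compared with all undifferentiated tumour cells, the comparison in which a turn to oxidative metabolism would be looked for. The differentiating class was 1 cluster of 112 cells led by Mllt11, Rab3a and Stmn2, genes of neurons. It entered for mice 1, 2 and 4 with 33, 21 and 52 cells, and mouse 3 had 6 and was left out. Mitochondrial members were higher by 0.91 ± 0.15 log2 units and nuclear members by 0.35 ± 0.07, in 3 of 3 mice. A high nuclear level was not particular to this class. Taken by cluster, the undifferentiated tumour clusters with low Malat1 had 455.7 and 438.1 nuclear-member UMIs per 10000, and the differentiating cluster 467.3. Their mitochondrial UMIs were 4.682% and 4.014%, against 6.086% in the differentiating cluster. Malat1 was 26.5 ± 17.0 per 10000 in the class and 140 ± 20.1 over all tumour cells, and cytosolic ribosomal protein genes were higher by 0.30. The part of these in the result was not tested.

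Of 83 nuclear members 9 rose and 0 fell, and of 13 mitochondrial members 9 rose and 0 fell, against 4.68% of all genes called (1.19% higher, 3.49% lower). The median log2 fold change was 0.69 for mitochondrial and 0.30 for nuclear members, against -0.42 over all genes. The nuclear median remained 0.30 with Atp5sl, which had no UMI in the class, set to the floor of 3 UMIs. The median over all genes includes genes with no UMI in the class, such as Myc at -8.88, and these were not set to the floor. The level of mt-Co1 was 80.8, 111 and 128 UMIs per 10000 in the differentiating cells of mice 1, 2 and 4 and 42.2, 47.5 and 59.5 in their undifferentiated cells, with no overlap. Its log2 fold change was 1.01 (SE 0.16, adjusted p = 5.02e-08). The apocytochrome b gene mt-Cytb rose from 28.9, 33.2 and 27.2 to 46.9, 70.4 and 58.9, by 0.89 (adjusted p = 1.21e-06).

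Among nuclear members, Uqcr11, a small subunit of complex III, was 10.3, 9.38 and 9.26 UMIs per 10000 against 5.29, 5.51 and 5.49, a rise of 0.78 (SE 0.17, adjusted p = 0.000574). Both classes were tight and apart. Cox4i1, the common form of complex IV subunit IV, rose by 0.65 (adjusted p = 0.00187), from 15.2, 14.5 and 15.99 to 25.3, 23.1 and 26.2. Ndufv3 and Ndufa6 of complex I rose by 0.86 and 0.79. Complex II was not called in any of 4 genes (median -0.11), nor was Cox5b, at 3.81, 5.47 and 5.85 UMIs per 10000 (log2 fold change 0.53, adjusted p = 0.123).

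This comparison rested on how the cluster was cut and on single mice. Without mouse 1, 2 or 4, 4, 0 and 9 members were called in place of 18, and 10 without the block. With a mitochondrial limit of 20% or none, at least 1000 genes per cell, a coarser clustering or regression of the cell cycle, the differentiating class took in more cells, and the summed differences shrank to between -0.08 and 0.04 for nuclear and between -0.11 and 0.38 for mitochondrial members. With the Cntn2-led cluster counted as differentiating they were -0.00044 and 0.12. Against non-cycling cells alone 37 members were called.

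**Figure D5:**
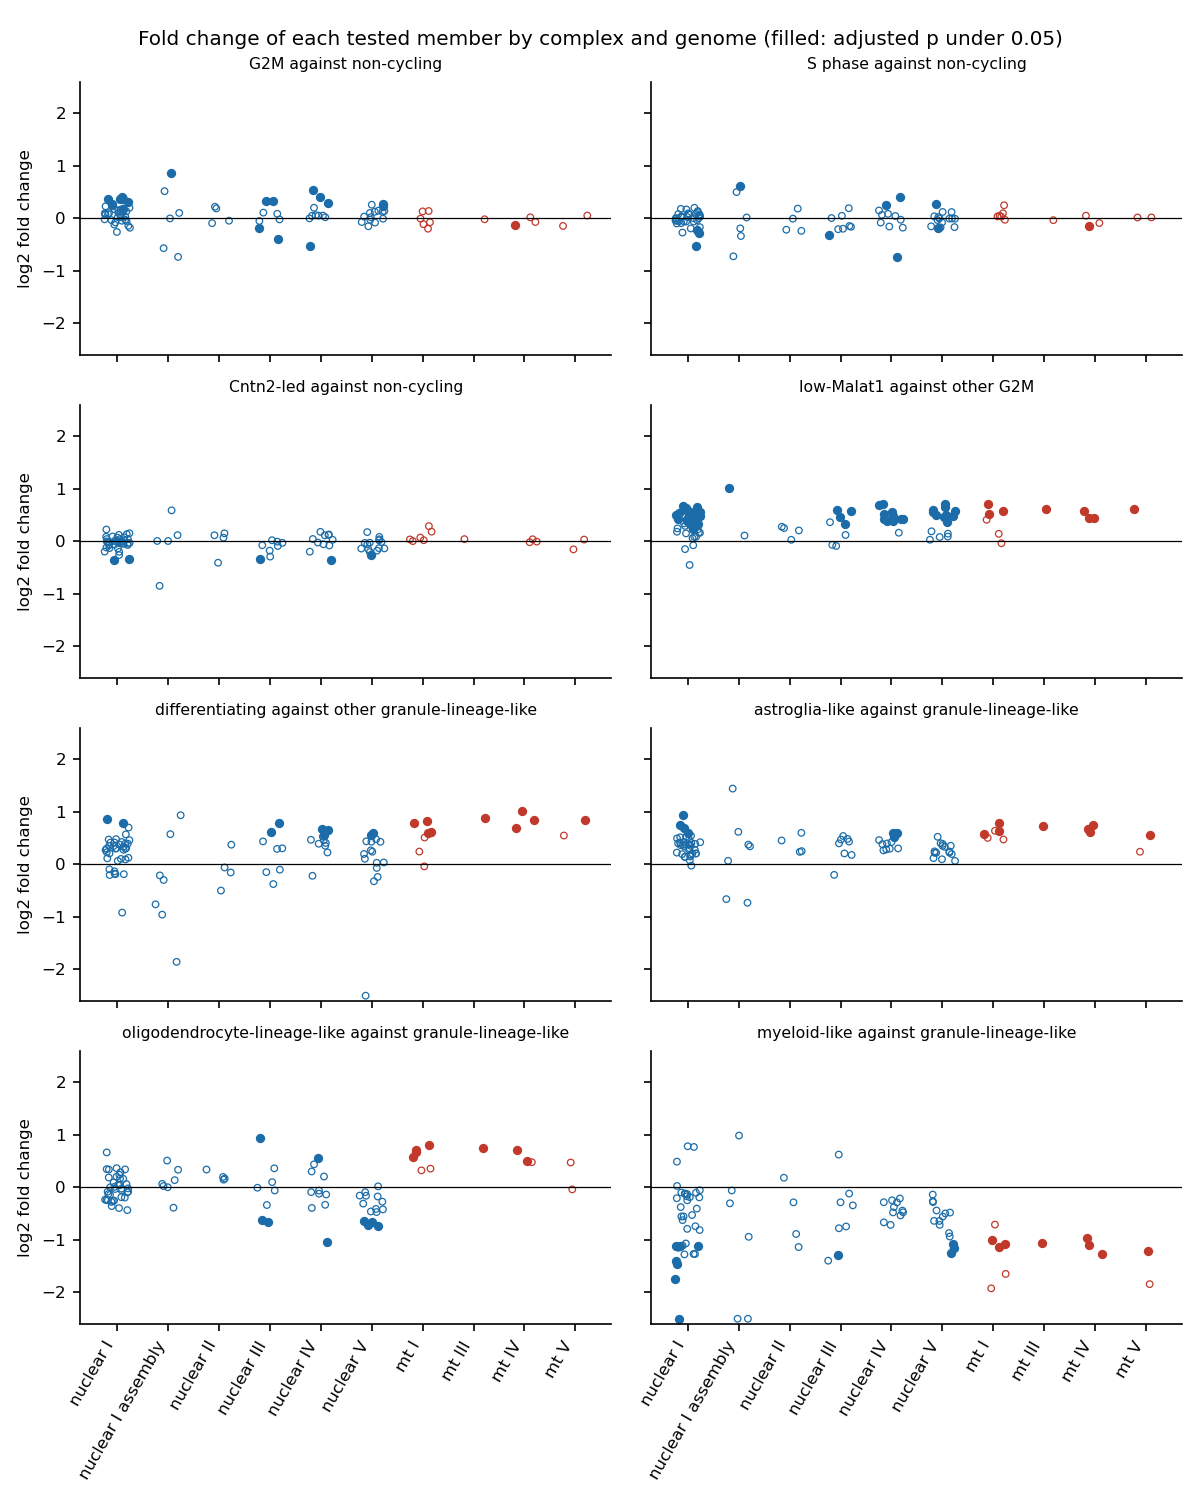
Log2 fold change of each member in the 8 comparisons, arranged by complex and genome, with filled points for an adjusted p below 0.05 in edgeR's quasi-likelihood test; values beyond 2.5 in either direction are drawn at the edge. Most mitochondrial members lie above the line in differentiating, astroglia-like, oligodendrocyte-lineage-like and low-Malat1 G2M cells, below it in myeloid-like cells, and near it in S and G2M cells.

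The classes outside the granule lineage by their markers, whose origin was not tested, were each compared with all granule-lineage-like cells, a reference shared by the 3 comparisons. Astroglia-like cells (136 cells, with 15 of 16 astroglia markers detected) had both genomes higher in 4 of 4 mice, by 0.29 ± 0.10 log2 units for nuclear and 0.62 ± 0.10 for mitochondrial members. Of 82 nuclear members 7 were called higher and 0 lower, and of 12 mitochondrial members 8 higher and 0 lower, against 4.11% of all genes (2.61% higher, 1.5% lower). Medians were 0.35 and 0.62, against -0.14 over all genes. Malat1 was 70.9 ± 18.6 here, and 13 of 14 granule-lineage markers were also detected, at 10.3 to 23.0 per 10000 in sum against 20.5 to 24.7 in the granule-lineage-like cells. The part of these in the result was not tested.

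Examples from each side show the size. The mitochondrial mt-Nd4, a core subunit of complex I, was 25.3, 28.5, 22.0 and 30.9 UMIs per 10000 in astroglia-like cells and 15.4, 17.2, 14.2 and 16.7 in tumour cells, without overlap. It rose by 0.79 (SE 0.16, adjusted p = 2.49e-05) and kept its call in all 15 alternatives. Ndufa8, an accessory subunit of complex I, was 3.24, 2.93, 4.07 and 3.29 against 2.06, 2.00, 2.00 and 2.12, a rise of 0.75 (SE 0.20, adjusted p = 0.00695) from 88 UMIs. Cox8a and Ndufb7 rose by 0.60 and 0.69, and mt-Co1 by 0.74 (adjusted p = 0.000616), from 42.9, 48.2, 66.4 and 61.7 to 61.4, 77.3, 124 and 106. Each mouse's astroglia-like value was the higher, although the ranges overlapped. Cox5b was not called (0.28, SE 0.19). Without mouse 1, 2 or 4 only 2, 3 and 3 members were called in place of 15.

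Oligodendrocyte-lineage-like cells (142 cells, oligodendrocyte precursors and oligodendrocytes together) showed the 2 genomes apart. Mitochondrial members were higher by 0.73 ± 0.20 log2 units in 4 of 4 mice and nuclear members by 0.01 ± 0.07 in 2 of 4. Of 12 mitochondrial members 7 rose and 0 fell, and of 82 nuclear members 2 rose and 7 fell, against 24.0% of all genes (11.5% higher, 12.5% lower). The nuclear share called, 11.0%, was below that background and the mitochondrial share, 58.3%, above it. Medians were 0.54 and -0.06, and -0.18 over all genes. This class had the highest Malat1, 658 ± 213, and cytosolic ribosomal protein genes differed by -0.73 log2 units; the part of these in the result was not tested. Granule-lineage markers summed to 5.50 to 11.8 per 10000, and 15 of 16 myeloid markers were at 0. The larger cluster of the class, 117 cells, had 349.2 nuclear-member UMIs per 10000 and 5.777% mitochondrial UMIs. The smaller, 25 cells of which 22 came from mouse 4, had 438.2 and 4.661%, so the gap between the genomes was mainly that of the larger cluster.

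The mitochondrial mt-Nd2 was 11.3, 14.7, 15.9 and 14.4 UMIs per 10000 in this class and 6.39, 7.13, 7.37 and 8.11 in tumour cells, with no overlap, a rise of 0.81 (SE 0.18, adjusted p = 9.64e-05). The level of mt-Cytb rose by 0.76 (SE 0.19, adjusted p = 0.000636), and mt-Co1 by 0.50 with an adjusted p of 0.0493 that was lost without any 1 mouse. On the nuclear side, complex V had 0 of 15 up and 4 down with a median of -0.41, and complex I 0 of 37 called with a median of -0.02. Atp5g1, a gene of the membrane ring of the ATP synthase, was 3.19, 3.44, 4.39 and 4.16 against 5.60, 5.34, 6.75 and 5.76, a fall of 0.73 on the log2 scale (SE 0.21, adjusted p = 0.00306) with no overlap. Atp5e, Atp5l and Atp5j fell by 0.71, 0.66 and 0.64. Atp5b, the catalytic beta subunit, had a log2 fold change of 0.02 (SE 0.18) and was the 1 member of the 15 tested with a value above 0.

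Complex III and IV held changes in both directions. Uqcrb was 8.33, 4.81, 4.39 and 5.35 UMIs per 10000 against 2.72, 2.82, 2.12 and 2.86, a rise of 0.94 (SE 0.20, adjusted p = 2.36e-05). Uqcrh of the same complex fell by 0.66 (adjusted p = 0.00547). Cox7a2l was 2.94, 1.60, 3.29 and 4.33 against 6.81, 5.56, 6.07 and 5.08, the largest fall among the 82 nuclear members, by 1.04 (SE 0.22, adjusted p = 2.53e-05). Cox6a1 was 7.35, 9.39, 9.32 and 12.1 against 5.69, 6.33, 5.62 and 6.18, a rise of 0.55 (adjusted p = 0.016). The values of Uqcrb, Cox7a2l and Cox6a1 did not overlap between the classes. Without mouse 1, 7 members were called in place of 16. Uqcrb and mt-Nd2 kept their call in all 16 alternatives.

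Of these 3 classes, myeloid-like cells were the 1 with less mitochondrial RNA than the tumour cells in every mouse. The class is small, 39 cells (14, 7, 5 and 13), with all 16 myeloid markers detected and neutrophil markers from 0 to 583.8 per 10000 by mouse, so its makeup differed between mice. Mitochondrial members were at 182, 161, 288 and 206 UMIs per 10000 against 307, 329, 354 and 341, a log2 difference of -0.70 ± 0.30. Nuclear members, at 288, 348, 383 and 282 against 356, 352, 370 and 372, differed by -0.17 ± 0.22 and were higher in 1 of 4 mice. Of 81 nuclear members 0 rose and 11 fell, and of 12 mitochondrial members 0 rose and 8 fell, against 15% of all genes (3.93% higher, 11.1% lower). The scaling of this comparison put the median of all genes at -1.10, that of the mitochondrial members at -1.11 and that of the nuclear members at -0.53, or -0.48 with Ndufaf1 and Ndufaf7, which had no UMI, at the floor of 3 UMIs. The median over all genes includes genes with no UMI in the class, such as Pdha1 at -9.65, and these were not set to the floor. It is therefore not a like measure beside the medians of the members. Malat1 was 128 ± 85.9 in this class.

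Ndufa4, with 35 UMIs in the class, showed a wide gap. It was 5.82, 2.22, 6.01 and 5.54 UMIs per 10000 in myeloid-like and 12.6, 12.5, 16.1 and 13.5 in tumour cells, with no overlap. Its log2 fold change was -1.75 (SE 0.33, adjusted p = 3.19e-06), and it kept its call in all 15 alternatives. The mitochondrial mt-Co2 was 15.7, 15.5, 33.7 and 20.3 against 32.7, 34.3, 45.1 and 36.3, a fall of 1.26 on the log2 scale (SE 0.26, adjusted p = 2.19e-05), lower in each mouse. The level of mt-Atp6 fell by 1.20 (adjusted p = 8.65e-06), and mt-Co1, at 30.01, 28.8, 56.5 and 37.3, by 0.97 (adjusted p = 0.000931). Cox4i1 was not called, at 12.1, 22.2, 19.2 and 18.5 against 15.4, 14.6, 18.0 and 16.3. Ndufv1 was called lower on 2 UMIs in the class and is given no fold. DESeq2 called 3 members in place of 19, and 11 were called without mouse 1.

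Genes that serve the same machinery were taken from lists: 76 mitochondrial ribosomal proteins, 17 genes of the citric acid cycle, 36 of mitochondrial DNA and RNA handling, 34 assembly factors outside the symbol rule, 15 carriers and partners and 12 regulators of biogenesis. The mitochondrial ribosomal protein genes, like the members, were left out of the clustering. Genes of the other lists could be among those that defined the clusters, so their values are a description. In the low-Malat1 G2M cells 14 of 65 mitochondrial ribosomal protein genes tested rose and 0 fell, among them Mrpl14 with a log2 fold change of 1.03, where 13.8% of all genes rose and 17.1% fell. In oligodendrocyte-lineage-like cells 0 rose and 8 fell of 76, where 12.5% of all genes fell, and in myeloid-like cells 0 rose and 7 fell, where 11.1% fell, so neither count stood above the background. In S cells the counts were 4 up and 2 down of 75, and in G2M cells 4 and 2 of 74, below the shares of all genes (21.6% and 23.7% called).

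Of 17 genes of the citric acid cycle 1 rose and 2 fell in S cells and in G2M cells, a share near that of all genes. In myeloid-like cells 0 rose and 2 fell, in oligodendrocyte-lineage-like cells 0 and 1, and in astroglia-like cells 0 were called. Idh2, which makes NADPH in the matrix, rose by 0.54 in S cells and fell by 1.32 in oligodendrocyte-lineage-like cells. Cycs, cytochrome c, the carrier between complexes III and IV, rose by 0.52 in S cells (adjusted p = 0.000914). Slc25a4, an exchanger of ADP for ATP, fell by 0.39 in G2M cells in 3 of 4 mice and by 0.25 in S cells, while its relative Slc25a5 rose by 0.23 in S cells. Uqcc3, an assembly factor of complex III, fell by 0.86 in G2M and 0.90 in S cells. Chchd10, a protein of the cristae, stood 3.79 log2 units higher in astroglia-like than in tumour cells (56 UMIs in the class, adjusted p = 7.35e-26). Myc, a regulator of mitochondrial biogenesis, was lower than in non-cycling cells by 1.58 log2 units in G2M, 1.28 in S and 1.38 in the Cntn2-led cluster, and it is one of the genes that lead the non-cycling cluster itself.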

How the data were processed

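The measurements are UMI counts per gene and cell barcode from 4 tumour libraries, 1 per mouse. The counts were deposited by the authors as raw tables; the submitters' processing notes list Cell Ranger 2.0.2, Seurat and the build mm10, and library 1 was sequenced at 2 time points per the labels' protocols. The files hold 5670 barcodes, the study states 4749 cells, and 4137 passed at least 500 genes and at most 10% mitochondrial UMIs. Libraries held 1679285 to 3801197 UMIs in the files, before these filters. No doublet caller was run.

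Cells were clustered with scanpy 1.11.5 (2000 variable genes without members, mitochondrial or ribosomal genes, 30 components, 15 neighbours, Leiden resolution 1), without batch correction and without regressing the cell cycle. Mouse 3 gave 315 of the 525 cells of 1 undifferentiated tumour cluster, whose leading genes included Xist. Cluster names rest on at least 3 markers; states are set by summed markers at 1.5 times the lineage level, and non-cycling clusters by S and G2M sums below 0.75 times it. These names are rebuilt and may differ from the study's. UMIs were summed per mouse and class (at least 10 cells, 5 for myeloid-like cells, in at least 3 mice) and tested with edgeR 4.0.16, quasi-likelihood, the mouse as a block, with Benjamini-Hochberg adjustment over all genes tested. The pairing comes from the animal, since any 2 classes compared within a mouse share its library; their deviations correlated by 0.015 to 0.375. Levels are UMIs per 10000 of a class and are not scaled by length. Summed levels are over members and carry no test. The genes and lists were chosen with earlier results of these data known, and the Cntn2-led and low-Malat1 comparisons were added after seeing the data.

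Genes named are mt-Co1, Cox5b, the highest member of each complex and genome, and the called members with 1 sign in all mice and the largest changes (8 nuclear, 4 mitochondrial), with up to 3 listed genes outside the members; others were chosen after their values were seen. Alternatives were DESeq2 1.42.0, no filter, no block, each mouse left out, other limits on mitochondrial share and genes per cell, another resolution, regression of the cell cycle, thinning to 1000 UMIs, and leaving out cells of low Malat1 or of the top 5% by UMIs. Scripts were tested on simulated data. A log2 change of 1 was recovered for 2.99% of changed genes in the differentiating and 0% in the myeloid-like comparison. It was 10.4% in the astroglia-like and oligodendrocyte-lineage-like comparisons and 34.3% to 41.8% in the others. A change of 0.5 was recovered for at most 4.48% in any comparison. A gene that was not called may therefore still differ.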

Additional observations from a re-analysis of the deposited data

Results flagged for a closer look

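In myeloid-like cells Cox5b stood at 1.478 UMIs per 10000 in mouse 4 and at 3.328 to 3.605 in the other mice, a gap of 0.87 of the whole range, past Dixon's limit for 4 samples. The class holds 18 Cox5b UMIs in all mice together. Of 44 groups of 4 mice examined this was the 1 that passed, and chance passes about 1 in 20.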

How the results depend on the processing

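Counts below are members called, with the main count first, and log2 values are summed levels or single genes; the cause of each shift was not tested. The mouse as a block changed the count by over 1.5 times in 4 comparisons: without it 10 in place of 18 members were called in differentiating, 4 in place of 21 in G2M, 3 in place of 11 in S and 0 in place of 5 in Cntn2-led cells. With DESeq2 the counts were 4 in G2M, 4 in S, 3 in place of 19 in myeloid-like, 2 in Cntn2-led and 35 in place of 54 in low-Malat1 G2M cells. Without a filter on low counts they were 2 in differentiating, 7 in S, 6 in place of 15 in astroglia-like, 33 in myeloid-like, 2 in Cntn2-led and 32 in low-Malat1 G2M cells. Thinning gave 8 in differentiating, 11 in G2M, 0 in Cntn2-led and 17 in low-Malat1 G2M cells. At least 1000 genes per cell gave 7 in differentiating, 8 in astroglia-like and 6 in place of 16 in oligodendrocyte-lineage-like cells. Regression of the cell cycle gave 9 in differentiating cells, dropping the condition on progenitor markers (chosen after seeing the data) 9, and the non-cycling reference 37. The 20% limit gave 23 in astroglia-like cells and leaving out the top 5% by UMIs 24. No mitochondrial limit gave 66 in G2M and 72 in S, and leaving out cells of low Malat1 gave 13 in G2M. Leaving out 1 mouse gave 0 to 9 in differentiating cells, where mouse 3 had too few cells to enter and so was not left out. It gave 8 to 26 in G2M, 5 to 13 in S, 2 to 17 in astroglia-like, 7 to 16 in oligodendrocyte-lineage-like, 11 to 21 in myeloid-like, 2 to 6 in Cntn2-led and 36 to 55 in low-Malat1 G2M cells.

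The summed log2 differences of differentiating cells, 0.35 nuclear and 0.91 mitochondrial, became 0.043 and 0.38 with the 20% limit, -0.045 and -0.11 with none, -0.022 and 0.073 at 1000 genes, -0.075 and 0.027 at resolution 0.5, -0.027 and 0.029 with regression, and -0.00044 and 0.12 without the progenitor condition. In G2M cells the mitochondrial value, -0.04, became -0.17 with the 20% limit, -0.89 with none and -0.22 at 1000 genes, and the nuclear value, 0.04, became -0.31 with no limit, 0.088 after thinning and -0.028 without low-Malat1 cells. In S cells the mitochondrial value, -0.02, became 0.19, -0.97 and -0.16 in the same 3 settings, and the nuclear value, -0.03, became -0.40 with no limit. The mitochondrial value of astroglia-like cells, 0.62, became 0.51, 0.47 and 0.37, and the nuclear value of oligodendrocyte-lineage-like cells became 0.11 at 1000 genes.

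Single genes of differentiating cells turned negative. With no mitochondrial limit mt-Co1 was -0.16, mt-Nd1 -0.28, mt-Cytb -0.18, mt-Co3 -0.17, mt-Atp6 -0.25, Uqcrh -0.063, Ndufa6 -0.12, Cox6a1 -0.027, Atp5j2 -0.040 and Atp5o -0.088. At 1000 genes mt-Nd1 was -0.072, mt-Atp6 -0.055 and Atp5o -0.081. At resolution 0.5 mt-Nd1 was -0.18, mt-Cytb -0.062, mt-Co3 -0.0081, mt-Atp6 -0.094, Uqcrh -0.15, Ndufv3 -0.22, Ndufa6 -0.098, Uqcr11 -0.10, Cox6a1 -0.038, Atp5j2 -0.061 and Atp5o -0.11. With regression mt-Nd1 was -0.068, mt-Cytb -0.00011, mt-Co3 -0.042, mt-Atp6 -0.016, Uqcrh -0.095, Ndufv3 -0.043, Ndufa6 -0.0039, Uqcr11 -0.0048 and Atp5o -0.060. Without the progenitor condition mt-Nd1 was -0.032 and Atp5o -0.068. In G2M cells with no limit Cox5b was -0.53, Ndufa4 -0.40, Cox7a2 -0.41, Cox5a -0.093, Ndufb8 -0.23, Ndufs5 -0.30 and Ndufb7 -0.42. In S cells with no limit Ndufaf2 was -0.060, Cox5a -0.16, Atp5g2 -0.18 and Cox7a2 -0.77, and mt-Co1 was 0.040 with the 20% limit.

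Too few mice held both classes for leaving out low-Malat1 cells in differentiating, astroglia-like and low-Malat1 G2M cells, for other mitochondrial limits in Cntn2-led cells, for 1000 genes in myeloid-like, Cntn2-led and low-Malat1 G2M cells, and for resolution 0.5 in G2M, S, Cntn2-led and low-Malat1 G2M cells, so these were not run. Depth limits the small classes most, since many members of the myeloid-like class rest on under 30 UMIs.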

Other observations

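A cluster of 5 choroid plexus-like cells, 2 from mouse 1 and 3 from mouse 4, had 811.5 nuclear-member UMIs per 10000, with 0.5376% of its UMIs on mitochondrial genes; too few cells for any comparison. Oligodendrocyte precursors taken alone (117 cells) had 352 ± 14.9 nuclear and 576 ± 50.9 mitochondrial UMIs per 10000 (SD, n = 4), a ratio of 1.64 ± 0.168.

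The barcodes outside the filters give the levels that the limits removed. Those with over 10% mitochondrial UMIs (483) had 347 ± 24.3 nuclear-member UMIs per 10000, or 398 ± 24.5 per 10000 UMIs other than mitochondrial ones, with a Malat1 level of 360 ± 45.2; analysed cells had 365 ± 10.8, 378 ± 11.7 and 153 ± 27.1. In the band from 10% to 12% (199 barcodes) the nuclear level was 364 ± 14.8, and in analysed cells between 8% and 10% (283 cells) it was 377 ± 30.6. Barcodes with under 500 genes (1050) had 410 ± 32.8 nuclear and 953 ± 198 mitochondrial UMIs per 10000.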
